A study of Mus musculus with 8 samples.

Results

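The genes described here are 8 antiviral effector and speckled protein genes, chosen from the 259 genes of the authors' deposited table because they are listed there and belong to classes of interferon-stimulated genes. They are Ifit2 and Ifit1bl1 of the IFIT class, the GTPase gene Mx1, the OAS-like gene Oasl1, Ifi27l2a of the ISG12 class, Ifi209 of the p200 class, and Sp110 and Sp140, which encode speckled proteins. The rule matched all 8 symbols. RNA came from mammary epithelial cells of the FVB mouse strain, named PyVmT/Uba7 KO in the study's design. The rule that chose the genes calls them mammary tumour cells. UBE1L, the product of Uba7, starts ISGylation, in which the ubiquitin-like protein ISG15 is joined to other proteins. The 2 groups compared each hold 2 libraries by the labels, lack Uba7, were treated with IFN and received LPS at 100 ng/mL for 6 hours; 1 group carried an empty vector and the other UBE1L. LPS is a bacterial lipid sensed by Toll-like receptor 4. The sources used here do not give the type and dose of IFN, the promoter driving UBE1L or whether a vector group is 1 line or several, and no group with intact Uba7 is described. Other differences between the cells that carried each vector and an effect of UBE1L cannot be told apart.

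Type I interferon bound to its receptor activates the kinases JAK1 and TYK2, which lead transcription factors, IRF9 among them, to interferon-stimulated response elements (ISREs) near the start of target genes. Many targets are effectors that bind viral RNA, sense nucleic acid or act in the nucleus, and epithelial cells express them as well as immune cells. ISG15, UBE1L and the ISG15 protease USP18 are themselves products of such genes, and USP18 also restrains signalling at the receptor.

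The table gives, for each gene, a log2 fold change of UBE1L over empty vector, a mean abundance as log2 CPM (counts scaled to the size of the library), a likelihood-ratio score, a p-value and an adjusted p-value. It holds no value per library, so the spread between libraries is not given and the overlap of the groups could not be seen. Every listed gene had already passed an absolute log2 fold of 0.50 and an adjusted p of at most 0.0498, so a listed gene is a selected gene and an unlisted one has no value here. Of the 259 genes, 217 were higher with UBE1L (83.8%). The targeted gene Uba7 was 52.7-fold higher (5.72 on the log2 scale) by the authors' deposited table, the direction that the vector labels give. Also in that table, Kit, alone of 10 mammary epithelial markers, and 4 of 9 fibroblast markers (Col3a1, Postn, Col1a1 and Dcn, with log2 folds of 0.82, 0.73, 0.52 and 0.51) are listed, all higher, and 0 of 9 macrophage and leukocyte markers. Since unlisted genes have no value, the labelled cell type could not be checked against its markers, and the part of the fibroblast genes in the results below was not tested.

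In the authors' deposited table all 8 genes were higher with UBE1L, where 83.8% of all listed genes were. Their log2 fold changes ran from 0.52 for Oasl1 to 1.14 for Sp140. The median was 0.98, against 0.66 over all listed genes and 0.72 over the 217 that were higher. At least 1 log2 unit separated the groups for 4 of the 8, Sp140, Sp110, Ifit1bl1 and Ifi27l2a, and for 51 of the 259 listed genes in that direction (19.7%). The members were chosen from this same comparison, so these counts describe it and nothing is read from them.

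**Figure D1:**
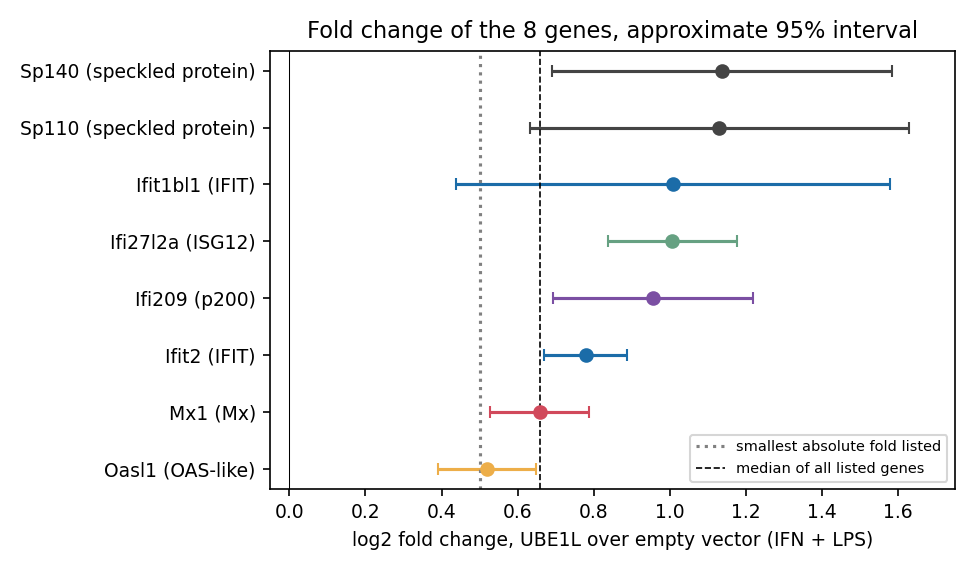
Log2 fold change (horizontal axis) of each of the 8 genes, with points for the deposited fold and bars for an approximate 95% interval derived from the likelihood-ratio score. The speckled protein genes stood highest, at 1.14 and 1.13, with wide bars, and Oasl1 lowest, at 0.52, close to the smallest listed absolute fold of 0.50.

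The IFIT genes were represented by 2 of the 6 family members. IFIT proteins are built of tetratricopeptide repeats and bind RNA, and several of them block translation of viral RNA. In the authors' deposited table Ifit2 was 1.72-fold higher with UBE1L (log2 fold change 0.78), with a mean abundance of 7.34 log2 CPM, or 162 CPM. Its likelihood-ratio score of 191 gave an adjusted p of 2.73e-40 in edgeR's test, the lowest among the 8. Ifit1bl1, a relative of Ifit1 that RefSeq also names Ifit1c, was 2.01-fold higher (1.01) in the authors' deposited table, but at only 1.99 log2 CPM, or 3.96 CPM. Its score of 12.0 and adjusted p of 0.00361, from edgeR, made it the least certain of the 8. Of the 8, Ifit2 was the most abundant and Ifit1bl1 the least. Ifit1, Ifit3, Ifit3b and Ifit1bl2 are not listed, although all 6 genes lie next to one another on chromosome 19 in the RefSeq gene order.

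Short motifs were searched for around the starts of the IFIT genes. Read on both strands were a core of the ISRE, GAAANNGAA (TTCNNTTTC on the other strand), the gamma-activated site TTCNNNGAA, which reads the same on both strands, and a form of the NF-kB site, GGGANTTCC (GGAANTCCC on the other strand). The windows ran from 250 bases before to 50 after each annotated RefSeq start in GRCm38.p6, the assembly of the C57BL/6J strain and not of FVB; neighbouring matches to the ISRE core can overlap. The ISRE core stands in 8.56% of all 32851 windows of that length, the gamma-activated site in 8.30% and the NF-kB form in 1.68%. All 4 unlisted IFIT genes hold the ISRE core in at least 1 window, and of the listed pair Ifit1bl1 does and Ifit2 does not. To show Ifit2 beside genes that hold the core, the 250 bases before a start are given 5′ to 3′ on the gene's strand, with matches to the ISRE core or the gamma-activated site in capitals.
Ifit1bl1, first listed start, chr19:34601969-34602218, minus strand: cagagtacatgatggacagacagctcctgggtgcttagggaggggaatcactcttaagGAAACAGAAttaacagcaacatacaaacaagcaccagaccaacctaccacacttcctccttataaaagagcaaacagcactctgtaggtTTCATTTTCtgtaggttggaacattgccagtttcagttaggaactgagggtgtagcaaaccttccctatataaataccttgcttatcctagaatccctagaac
Ifit1, chr19:34640639-34640888, plus strand: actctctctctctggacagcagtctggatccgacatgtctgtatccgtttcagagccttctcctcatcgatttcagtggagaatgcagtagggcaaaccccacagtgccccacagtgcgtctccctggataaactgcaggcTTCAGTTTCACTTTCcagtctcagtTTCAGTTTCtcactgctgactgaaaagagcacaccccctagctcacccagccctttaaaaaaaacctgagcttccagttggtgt
Ifit2, first listed start, chr19:34550444-34550693, plus strand: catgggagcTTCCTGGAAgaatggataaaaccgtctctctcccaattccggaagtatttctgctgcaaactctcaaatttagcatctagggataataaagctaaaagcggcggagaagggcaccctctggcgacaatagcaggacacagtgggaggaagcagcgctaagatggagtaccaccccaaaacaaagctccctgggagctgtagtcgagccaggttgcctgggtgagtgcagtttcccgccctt
In Ifit1bl1 both capital runs are ISRE cores, 1 on each strand and 89 bases apart. In Ifit1 the capitals hold 3 such cores on the minus strand, of which a pair overlaps. In Ifit2 the capitals mark a gamma-activated site at the far end of the window, and the window of its other start holds none of the 3 motifs. A match is a run of letters, not a measured binding site.

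Ifit1bl1 has a second RefSeq start whose window carries the same pair of ISRE cores, shifted by 81 bases. Lined up at that shift, the windows were identical at 178 of 219 bases (81.3%). The files do not show which start was used in these cells.

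Mx1, the dynamin-like GTPase gene whose nuclear protein blocks influenza virus in mice that carry an intact allele, was 1.58-fold higher with UBE1L (log2 fold change 0.66, edgeR adjusted p 1.48e-20), as the authors' deposited table gives it. Its mean abundance was 7.15 log2 CPM, or 142 CPM, next to that of Ifit2. Many inbred mouse strains carry a disrupted Mx1, and RefSeq annotates the gene of the reference strain as a transcribed pseudogene while GENCODE M21 calls it protein coding. The labels do not give the allele of the FVB cells, and a transcript level does not show whether a protein is made. Mx2, the only other family member, is on the same chromosome and is not listed. With the scaling offset of 0.277 log2 units that balances the tails of the listed folds, the fold of Mx1 would be 0.38, under the fold limit of 0.50.

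Oasl1 had the smallest fold of the 8 in the authors' deposited table, at 1.43-fold higher with UBE1L (0.52 on the log2 scale). Its abundance of 5.95 log2 CPM, or 62.0 CPM, and score of 62.4 gave an edgeR adjusted p of 4.80e-13. OAS proteins sense double-stranded RNA and make a nucleotide messenger, whereas OASL1 does not make it and in mice restrains translation of Irf7, a transcription factor of interferon induction. Of the 12 genes on the OAS and OAS-like list Oasl1 is the 1 listed, and its neighbour Oasl2 is not. Only 14 listed higher genes had a smaller fold than Oasl1, and with the same offset its fold would be 0.24, also under the limit.

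Ifi27l2a, of the ISG12 class of small hydrophobic proteins, was 2.01-fold higher with UBE1L (1.01 on the log2 scale) by the authors' deposited table. With a mean abundance of 5.14 log2 CPM, or 35.2 CPM, and a score of 137, its edgeR adjusted p was 1.07e-28. It was the most abundant of the 4 genes that differed by at least 1 log2 unit. Ifi27 and Ifi27l2b, which follow it on chromosome 12, are not listed.

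**Figure D2:**
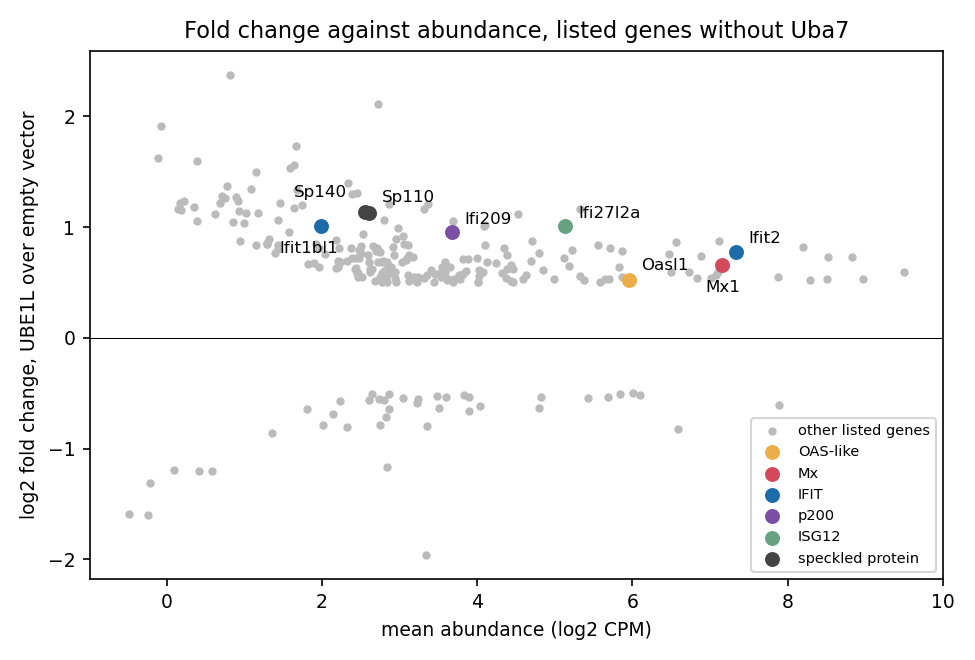
Log2 fold change (vertical axis) against mean abundance in log2 CPM (horizontal axis) for the listed genes without Uba7, with the 8 genes coloured by class. Ifit2 and Mx1 lie at the right, above 7 log2 CPM, with folds of 0.78 and 0.66, while Sp140, Sp110 and Ifit1bl1 lie below 3 log2 CPM at folds above 1.

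Ifi209, the 1 listed gene of 12 in the p200 list, was 1.94-fold higher with UBE1L (log2 fold change 0.96, edgeR adjusted p 1.08e-10) in the authors' deposited table, at 3.68 log2 CPM or 12.8 CPM. Proteins of this class combine a pyrin domain, a DNA-binding HIN domain or both, and some sense DNA. The 12 genes lie together on chromosome 1, and Aim2, which encodes a sensor of cytosolic DNA, is among the 11 not listed. Much of the sequence of Ifi209 is not its own, since 1182 of its 3544 distinct 50-base stretches (33.4%) also occur in transcripts of Ifi214, a protein-coding gene of the same cluster. How reads from these stretches were counted is not given in the sources used here, so the value of Ifi209 is uncertain, and Ifi214 is not listed. The following 50 bases, at positions 260 to 309 of the longest Ifi209 coding transcript, occur in both genes and are all in capitals for that reason.
Ifi209 and Ifi214: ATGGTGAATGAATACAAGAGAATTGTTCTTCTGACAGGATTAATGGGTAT

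The start windows of Ifi209 and Ifi214 also resemble each other, and they differ within the ISRE core. Of the 10 unlisted p200 genes with a promoter entry 8 hold this core, Ifi214 among them, and Ifi209 does not. Counted from the first of the 9 letters of the core in Ifi214, the windows differ there by G1T, which takes Ifi209 out of the search pattern. Both runs begin 79 bases before the start. The pair is shown with matches in capitals, of which Ifi209 has none.
Ifi209, chr1:173630609-173630858, plus strand: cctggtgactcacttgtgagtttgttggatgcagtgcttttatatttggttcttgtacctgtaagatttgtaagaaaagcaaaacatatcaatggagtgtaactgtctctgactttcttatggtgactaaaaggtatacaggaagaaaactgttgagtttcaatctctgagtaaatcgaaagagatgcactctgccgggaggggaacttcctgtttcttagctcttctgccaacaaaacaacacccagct
Ifi214, chr1:173535958-173536207, minus strand: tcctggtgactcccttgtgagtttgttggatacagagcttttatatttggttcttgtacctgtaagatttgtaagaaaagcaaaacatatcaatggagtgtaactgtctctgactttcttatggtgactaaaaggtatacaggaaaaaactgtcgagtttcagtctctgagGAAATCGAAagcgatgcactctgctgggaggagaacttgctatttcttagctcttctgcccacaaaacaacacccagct
The allele of FVB mice at this base was not analysed here.

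**Figure D3:**
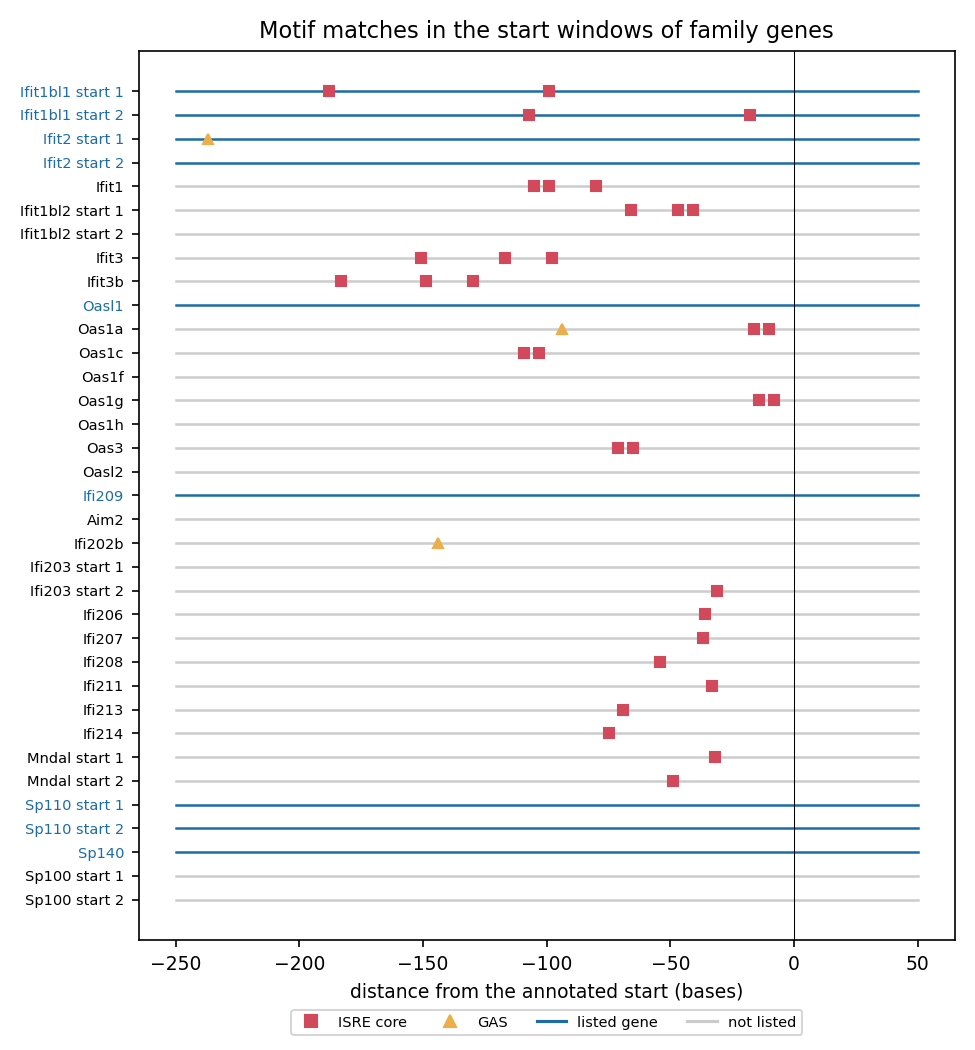
Positions of ISRE core matches (squares) and gamma-activated site matches (triangles) in the start windows of the family genes with a RefSeq promoter entry, with distance from the annotated start in bases on the horizontal axis. Listed genes are drawn in blue, and among them Ifit1bl1 holds ISRE cores and Ifit2 a gamma-activated site.

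Over the families, 1 of the 6 described genes with a promoter entry (Ifit1bl1) and 16 of 22 unlisted relatives held an ISRE core in at least 1 window. Among all 195 listed genes with an entry, 21 did (10.8%), against 9.76% of 27025 genes in the promoter table. These counts take in every family gene that has an entry; Mx1 and Ifi27l2a are named only. No described gene and no relative held the NF-kB form. A missing match says only that these letters are not in this window.

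The speckled protein genes Sp110 and Sp140 had the highest folds of the 8 and nearly the same values. SP110 and SP140 sit in nuclear bodies and carry domains that bind chromatin; in mice Sp110, also called Ipr1, is linked to resistance to intracellular bacteria and SP140 restrains interferon responses. In the authors' deposited table Sp140 was 2.20-fold higher with UBE1L (log2 fold change 1.14, edgeR adjusted p 1.42e-05) at 2.55 log2 CPM, or 5.87 CPM. The same table gave Sp110 a 2.19-fold difference (1.13, edgeR adjusted p 0.000134) at 2.61 log2 CPM, or 6.09 CPM. They are neighbours on opposite strands of chromosome 1, followed by Sp100, the remaining gene of the list, which is not listed. In GENCODE M21 they overlap by 0 bases. In RefSeq the first start of Sp110 lies past that of Sp140, so transcripts from these starts would run across each other. Libraries were stranded per the labels' protocols, but the counting is not described in the sources used here.

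Both values are uncertain because each gene shares sequence with other genes. In Sp140, 1312 of 3440 distinct 50-base stretches (38.1%) also occur elsewhere, most often in the processed pseudogene Gm5831 with 520 and in the pseudogene Gm2427 with 519. The protein-coding genes A530032D15Rik with 459 and C130026I21Rik with 438 come next, and neither is on the list of speckled proteins. In Sp110 the count is 2487 of 6914 (35.97%), of which 1845 occur in the transcribed pseudogene Gm16026 on the same chromosome. The protein-coding C130026I21Rik holds 237 stretches of Sp110. None of the 6 partner genes with the most shared stretches overlaps Sp110 or Sp140, respectively, in the GENCODE M21 annotation. A coding stretch of each is shown, all in capitals since every base is shared.
Sp110, bases 191 to 240 of its longest coding transcript, shared with Gm15753 and Gm16026: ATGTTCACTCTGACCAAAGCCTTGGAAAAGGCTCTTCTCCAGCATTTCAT
Sp140, bases 1004 to 1053 of its longest coding transcript, shared with A530032D15Rik, Gm5831 and Gm6264: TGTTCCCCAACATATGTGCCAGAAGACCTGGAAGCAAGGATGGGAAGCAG
A read of 50 bases from either place could not be assigned to 1 gene by its letters.

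**Figure D4:**
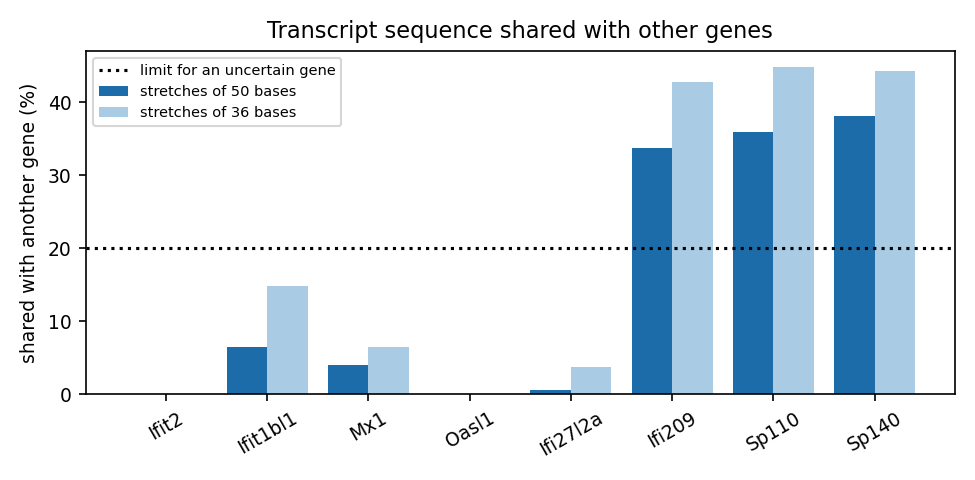
Percent of distinct transcript stretches that also occur in another gene (vertical axis) for each of the 8 genes, at 50 bases, the read length, and at 36 bases. Ifi209, Sp110 and Sp140 exceed the 20% limit at both lengths, and Ifit2 and Oasl1 share none.

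The other 5 genes share less of their sequence. Ifit2 and Oasl1 share 0% of their 50-base stretches, Ifi27l2a 0.48% and Mx1 3.91% (159 stretches with Mx2). Ifit1bl1 shares 6.45% (140 stretches with Ifit1bl2 and 16 with Ifit1). At 36 bases Ifit1bl1 shares 14.8%, and its abundance is only 3.96 CPM, so its value is less secure.

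By abundance the 8 genes were split at a set limit of 4 log2 CPM into an upper and a lower set. Ifit2, Mx1, Oasl1 and Ifi27l2a had at least 4 log2 CPM in the authors' deposited table, and Ifi209, Sp110, Sp140 and Ifit1bl1 less. The median log2 fold was 0.72 in the upper and 1.07 in the lower set. Among all listed higher genes it was 0.62 for the 64 with at least 4 log2 CPM and 0.76 for the 153 below, and a gene with few reads needs a larger fold to pass the p threshold. At the 25000000 reads per library that the labels state as the aim, 3.96 CPM would be about 99 reads for Ifit1bl1 and 162 CPM about 4040 reads for Ifit2. Divided by the length of the longest coding transcript, mean abundance was 76.0 CPM per kilobase for Ifi27l2a, 42.3 for Ifit2, 42.0 for Mx1 and 28.4 for Oasl1. On the same scale Ifi209 stood at 3.72, Sp110 at 3.17, Sp140 at 2.43 and Ifit1bl1 at 1.80. The short Ifi27l2a transcript of 463 bases thus led per length although Ifit2, Mx1 and Oasl1 had more CPM. Which transcripts the cells used is not known from the table, and with the shortest coding transcript Mx1 and Ifit2 would lead.

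The likelihood-ratio score allows a rough error for each fold, taken as the fold divided by the square root of its score. This approximation gives an approximate standard error of 0.06 log2 units for Ifit2, 0.07 for Mx1 and Oasl1, 0.09 for Ifi27l2a and 0.13 for Ifi209. It gives 0.23 for Sp140, 0.25 for Sp110 and 0.29 for Ifit1bl1. The approximate 95% interval of the fold was 1.59 to 1.85 for Ifit2 and 1.35 to 2.99 for Ifit1bl1, so the larger fold of Ifit1bl1 was not resolved from that of Ifit2 (difference 0.23 log2 units, interval -0.35 to 0.81). In the order of folds, the interval of the difference contained 0 for every pair of neighbours. The difference between Ifi27l2a and Oasl1, an unplanned pair added beside the neighbours, was 0.49 log2 units with an interval of 0.27 to 0.70. Other distant pairs were not compared, and the folds are those that the members were chosen by, so nothing is read from this pair. The fold of Oasl1 lies close to the smallest listed absolute fold of 0.50. These intervals take the genes as independent although they share libraries, and the order of folds itself chose the neighbours compared. They rest on 2 libraries per group, whose replicates may show technical spread only.

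**Figure D5:**
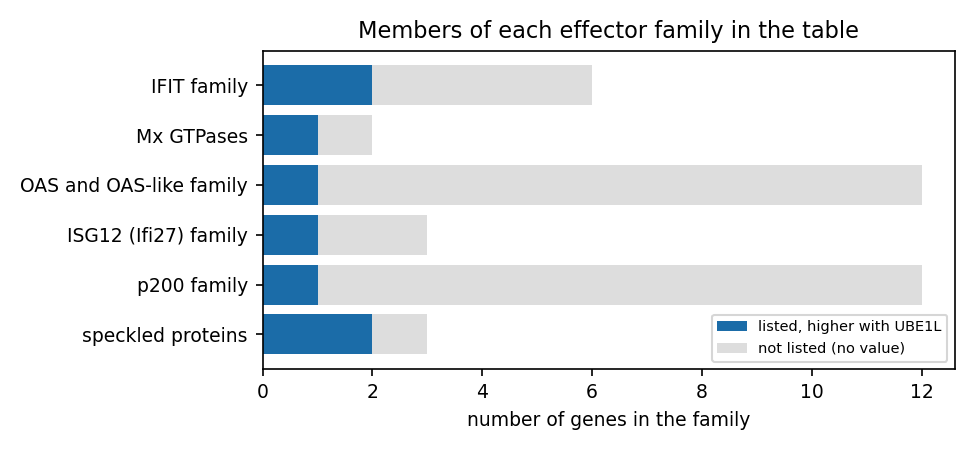
Number of genes in each effector family (horizontal axis) that are listed in the table, in blue, or not listed, in grey. All listed family genes were higher with UBE1L, and 30 of the 38 family genes have no value.

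Across the 6 families, 8 of 38 genes are listed, all higher, where 83.8% of all listed genes were. They are the same 8 genes that were chosen for being listed, so the count restates that choice. Among regulators of the interferon response, the transcription factor genes Stat2, Irf7 and Irf9, named only as examples, are not listed. Beside Uba7 none of the 5 other ISGylation genes on the list, Isg15, Ube2l6, Herc6, Trim25 and Usp18, is listed. Whether these genes were below the fold limit, not past the p threshold or not tested is not known from the table.

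In the order of listed folds, Sp110 comes directly after Sp140, and Ifi27l2a directly after Ifit1bl1. The other listed genes nearest in fold are not on the lists of effector families. Cfb (complement factor B, 1.01) stands just above Ifit1bl1 and Stc1 (stanniocalcin) just below Ifi27l2a in the authors' deposited table. Around Ifi209 stand Olfr56 (0.99) and Lrrc32 (0.95), the latter also at nearly the same abundance, 3.68 log2 CPM. Sp140 follows Npr2 (1.14), and Sp110 is followed by Renbp (1.13), both with under 1.1 log2 CPM in the authors' deposited table. Nupr1 (0.78) and Mettl27 (0.78) flank Ifit2, Steap4 (0.66) and Acox2 (0.65) flank Mx1, and the chemokine gene Cxcl10 (0.53) and Col1a1 (0.52) flank Oasl1 in that table. Likeness here is the fold in 1 comparison only, since a pattern over samples was not available.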

How the data were processed

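RNA was measured by sequencing of stranded poly-A libraries with single reads of 50 bases, per the labels' protocols, in 8 libraries of 4 groups. The submitters' processing notes name the tools Trimmomatic 0.36, Salmon 0.9.1 and edgeR without saying what each did; the sources used here do not give the build, annotation, filter or model. Per the file headers, the table holds 1 comparison, UBE1L over control cells with IFN and LPS. The authors deposited fold change and mean abundance as log2 values (base 2 taken from edgeR's column names) and a likelihood-ratio score. The deposited p-value equals the upper chi-square tail of that score with 1 degree of freedom within a relative 6.60e-13, and the header of the adjusted p-value names both Bonferroni and FDR. The labels do not tell whether the 2 replicates per group were separate cultures, so the p-values may measure technical spread only. Depth per library is unknown from the table.

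No test across libraries was run. Values were copied, ranked and counted, over the 8 genes and over lists of whole families, pathways and markers; the lists of further antiviral effectors and of sensing and signalling genes are not reported here. In the p200 list, 4 symbols that RefSeq gives as older names of other members were dropped. The members and lists were chosen with earlier results of these data known. Named genes are the 8 members, Uba7, listed genes of the lists reported, and the genes next to each member in fold. Unlisted relatives are named for their absence, promoters or shared sequence, and unlisted ISGylation genes and interferon regulators for their absence. Shared stretches were counted in GENCODE M21 transcripts of all genes on the same strand, with 20% or more called uncertain, and promoters came from RefSeq (GRCm38.p6), with entries for 6 of the 8 genes. Stretch, motif and rank procedures were tested on simulated data. Python 3.11.15, pandas 2.3.3 and scipy 1.17.1 were used.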

Additional observations from a re-analysis of the deposited data

How the results depend on the processing

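All 8 genes kept their listing with an adjusted p under 0.01, as did 177 of all 259 listed genes. Asking for an absolute log2 fold of 1 or more left 4 (Sp140, Sp110, Ifit1bl1 and Ifi27l2a) and 59 of all listed genes. Asking for 4 log2 CPM or more left 4 (Ifi27l2a, Ifit2, Mx1 and Oasl1) and 74 of all listed genes. Without genes that share 20% or more of their stretches, 5 of the 8 and 229 of all listed genes stayed. Since the 8 are the listed genes of the 6 families, the family counts were the same 4, 4 and 5, and matching by synonyms left 8. An offset of 0.277 log2 units was set to balance the tails of the listed folds. Subtracting it left 6 of the 8 and 132 of all listed genes past the fold limit. Ifit2 then stood at 0.50, Mx1 at 0.38 and Oasl1 at 0.24. No listed higher gene could turn direction, since the smallest listed absolute fold of 0.50 exceeds the offset. The share of higher genes among the listed genes left by each setting ran from 68.2% of 132 with the offset to 86.5%. Lower genes that only the offset would carry past the limit are not listed. The 68.2% therefore lacks them and gives no measure of the balance of directions. Stretches of 36 bases moved no gene across the 20% limit, and windows of only the 250 bases before the start left 1 of 6 genes with an ISRE core. Per length with the shortest coding transcript, an alternative added after seeing the data, Mx1 stood at 8.21, Ifit2 at 7.85 and Sp140 at 3.30 log2 CPM per kilobase, against 5.39, 5.40 and 1.28.

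No paired analysis was possible because values of single libraries are not in the table used here, and no fit without a library was run. The planned comparison of proteins was not run, as no protein sequences were used here.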

Other observations

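The ratio of adjusted to unadjusted p in the authors' deposited table equals 6413.48 divided by an integer for each gene other than Uba7, with a deviation of at most 4.35e-10, and the integers behave as ranks by p that also count genes with no row here. Ifit2 stood at place 4, Ifi27l2a at 8 and Mx1 at 16, followed by Oasl1 at 38 and Ifi209 at 71. Sp140 stood at 273, Sp110 at 418 and Ifit1bl1 at 959 of at least 2342. Among the 259 listed genes alone Ifit1bl1 was 156th by p, so most genes ranked before it are not listed. The adjustment behind these ratios is not given in the sources used here.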
